A study of Homo sapiens with 4 samples.

Results

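Gluconeogenesis is the synthesis of glucose from lactate, amino acids and glycerol, and 7 genes that encode its committed steps were followed here in 2 human hepatocellular carcinoma cell lines. The members are PC, PCK1, PCK2, FBP1, G6PC, G6PC3 and SLC37A4, chosen by name from the 59652 genes of the count table. The table carries the liver glucose-6-phosphatase gene under the older symbol G6PC, now G6PC1. Huh7 and PLC cells (PLC/PRF/5), both of wild-type genotype, were grown in glucose-free DMEM with foetal bovine serum to which either 5 mM or 25 mM glucose had been added for 48 h. Each line gave 1 library at each glucose concentration, so the 4 libraries hold no replicate and nothing says how many cultures stand behind them. RNA was depleted of rRNA before the directional libraries were built.

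In the liver, fasting switches this pathway on and feeding switches it off. Pyruvate carboxylase (PC) makes oxaloacetate in the mitochondria, and phosphoenolpyruvate carboxykinase turns it into phosphoenolpyruvate, either in the cytosol (PCK1) or in the mitochondria (PCK2). Fructose-1,6-bisphosphatase (FBP1) removes a phosphate further up the pathway. The transporter encoded by SLC37A4 then carries glucose 6-phosphate into the endoplasmic reticulum, where glucose-6-phosphatase releases free glucose. G6PC encodes the form of liver and kidney, while G6PC3 is the widely expressed form. PCK2 is also known as a target of the transcription factor ATF4, which acts when amino acids are short. G6PC transcription is known to respond to insulin and to glucose itself.

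Reads counted on genes ranged from 16049686 to 30279716 per library, and the library of PLC cells at 25 mM was the shallowest. Levels were expressed as FPKM, the reads per 1000 bases of exon in the table's gene length, scaled to a library total of 1000000 reads. The ratio of 25 mM to 5 mM was taken within a line after 0.1 FPKM was added to both values. A gene was counted as past the thresholds when either library of the line had over 0.5 FPKM and its ratio was over 1.5 or under 0.67. Intervals are exact (Clopper-Pearson) 95% intervals of the ratio without the added 0.1, and they cover counting error only, so that they compare libraries and not conditions. In bulk RNA, fewer cells that express a gene and less RNA in each cell cannot be told apart. All 10 hepatocyte markers examined were over 0.5 FPKM in Huh7 cells and 9 of 10 in PLC cells, where TTR had 4 reads at 5 mM and 0 at 25 mM. Markers of fibroblasts, endothelium and blood cells summed to between 8.43 and 9.08 FPKM in Huh7 cells, mostly LUM and PECAM1, and to 0.386 FPKM or less in PLC cells.

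Neither line expressed the whole set. Huh7 cells held 4 of the 7 genes over 0.5 FPKM (PC, PCK2, G6PC3 and SLC37A4), and PLC cells held 6, all except FBP1. In PLC cells G6PC was over 0.5 FPKM at 25 mM alone (1.21 FPKM, and 0.356 at 5 mM). PC and PCK2 were the most abundant by FPKM, and the genes best known from the fasted liver, PCK1, FBP1 and G6PC, were the least abundant in each library. The plot of FPKM by library shows these levels.

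PC, which opens the pathway from pyruvate, lies on chromosome 11 of hg38 from 66848417 to 66958386 on the minus strand. In Huh7 cells it had 7405 reads at 5 mM and 10617 at 25 mM, or 47.4 and 48.3 FPKM. In PLC cells it had 2022 and 1595 reads, or 9.15 and 13.6 FPKM. Huh7 cells were thus above PLC cells at each concentration, 5.19-fold (4.94 to 5.45) at 5 mM and 3.55-fold (3.37 to 3.75) at 25 mM. The ratio of 25 mM to 5 mM was 1.02 in Huh7 cells (0.989 to 1.05), with an interval that holds 1. In PLC cells it was 1.48 (1.39 to 1.59), just short of the threshold of 1.5, and 1.37 with TMM scaling. LRFN4, on the opposite strand, shares 621 of the exon bases of PC, or 8.50%, and had between 7 and 159 reads.

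PCK2, on chromosome 14 from 24094053 to 24110598, encodes the mitochondrial carboxykinase and showed the largest difference within Huh7 cells among the members over 0.5 FPKM. Its reads in Huh7 cells were 2181 at 5 mM and 1082 at 25 mM although the second library was deeper, or 24.4 and 8.61 FPKM. PLC cells held 5913 reads at 5 mM and 3095 at 25 mM, which gives 46.8 and 46.2 FPKM. The level in Huh7 cells at 25 mM was the lowest of the 4, and both PLC libraries stood above both Huh7 libraries. The glucose ratio was 0.355 in Huh7 cells (0.327 to 0.379), which placed PCK2 at percentile 3.63 of the ratios of all genes over 0.5 FPKM in that line. In PLC cells the ratio was 0.988 (0.945 to 1.03), and 0.909 with TMM scaling. Whether the lines differ in this ratio could not be tested, since an interaction would use up all 4 libraries.

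PCK1, on chromosome 20 from 57561080 to 57568121, encodes the cytosolic carboxykinase. It had 0 reads in both Huh7 libraries, where 3 reads would stand for 0.0206 FPKM at 5 mM and 0.0146 FPKM at 25 mM. In PLC cells it had 145 reads at 5 mM and 380 at 25 mM, or 0.701 and 3.47 FPKM. Against 3 reads in the Huh7 library, PLC cells were at least 34.1-fold higher at 5 mM and at least 237-fold higher at 25 mM, with the counting error of the PLC reads left aside. The glucose ratio in PLC cells was 4.45, and 4.94 (4.07 to 6.03) without the added 0.1. It lay at percentile 96.3 of all genes over 0.5 FPKM in PLC cells.

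FBP1, on chromosome 9 from 94603133 to 94640249, was close to undetected in all 4 libraries. Huh7 cells held 4 and 17 reads of it (0.107 and 0.323 FPKM), and both PLC libraries held 0. A count of 0 allows up to 0.0566 FPKM in PLC cells at 5 mM and up to 0.107 FPKM at 25 mM. The ratio of the reads scaled to library totals in Huh7 cells was 3.02, but its interval ran from 0.985 to 12.3 and holds 1. PCAT7, a lncRNA on the opposite strand, shares 283 exon bases with FBP1, or 16.2% of them, and had between 29 and 211 reads. FBP2, the muscle form of the enzyme, had between 2 and 18 reads, or 0.560 FPKM or less.

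G6PC, on chromosome 17 from 42900797 to 42914438, was nearly absent from Huh7 cells, with 4 reads at 5 mM (0.0429 FPKM) and 7 at 25 mM (0.0533 FPKM). The PLC libraries held 47 and 85 reads, which gives 0.356 and 1.21 FPKM. PLC cells were 8.30-fold above Huh7 cells at 5 mM (3.03 to 31.7) and 22.8-fold above them at 25 mM (10.6 to 58.3). The glucose ratio in PLC cells was 2.88, and 3.41 (2.36 to 4.98) without the added 0.1, at percentile 92.6 in that line. In Huh7 cells the same ratio of reads scaled to library totals was 1.24 (0.316 to 5.79), which so few reads leave undecided. G6PC2, the islet form, had 6 reads or fewer in each library. Among the transporter relatives, SLC37A3 was the best expressed, at 3.43 to 4.86 FPKM, with ratios of 0.883 in the Huh7 and 0.953 in the PLC libraries. In PLC cells SLC37A1 passed upward (ratio 1.70) and SLC37A2 downward (0.550), both at 1.04 FPKM or less. Of the 5 paralogues edgeR tested 4 for a change with glucose and called 0, with 1 unadjusted value under 0.05. Over all genes 1975 of 23217 had such a value.

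G6PC3, also on chromosome 17, from 44070735 to 44076344, was the member whose level varied least between libraries. Huh7 cells held 651 and 754 reads of it (6.69 and 5.51 FPKM), and PLC cells held 751 and 570 (5.45 and 7.80 FPKM). Huh7 cells had a glucose ratio of 0.826 (0.740 to 0.915) and PLC cells one of 1.42 (1.28 to 1.60), on opposite sides of 1 but within the thresholds in both.

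SLC37A4, on chromosome 11 from 119024114 to 119030906 on the minus strand, encodes the glucose 6-phosphate transporter that serves both phosphatases. Huh7 cells held 649 reads at the lower concentration and 1177 at the higher (4.91 and 6.32 FPKM). PLC cells held 409 and 961 (2.18 and 9.68 FPKM), so that the PLC libraries were the lowest and the highest of the 4. Its ratio came to 1.28 for Huh7 (1.17 to 1.42) and 4.28 for PLC cells (3.94 to 4.99), the latter at percentile 96.1 of that line. TRAPPC4 on the opposite strand shares 544 exon bases with it, or 8.79%. TRAPPC4 itself had between 329 and 1633 reads per library, and whether the counting used the strand is not given in the sources used here.

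In PLC cells, 3 of the 6 members over 0.5 FPKM were past the thresholds, PCK1, G6PC and SLC37A4, all higher at 25 mM. G6PC did not pass where both libraries had to exceed 0.5 FPKM, which leaves 2 members, and with 1 FPKM added in place of 0.1 the ratio was 2.63 for PCK1 and 1.63 for G6PC. In that line 26.2% of all genes over 0.5 FPKM passed upward and 17.0% downward. The balance of directions depended on scaling, with 60.7% of the genes past the thresholds higher at 25 mM by library totals and 50.5% by DESeq2 size factors, and the same 3 members passed upward under both. In Huh7 cells 1 of 4 passed, PCK2, lower at 25 mM, against a background of 14.1% upward and 13.7% downward. The median log2 ratio was -0.12 over the 4 members in Huh7 cells and 1.05 over the 6 members in PLC cells, beside 0.04 and 0.11 over all genes over 0.5 FPKM. These medians are over different genes and cannot be set against each other, and G6PC enters that of PLC cells through its 25 mM library alone. For the 4 genes of the Huh7 median, the log2 ratios in PLC cells were 0.57 (PC), -0.02 (PCK2), 0.51 (G6PC3) and 2.10 (SLC37A4). Of the 9 hepatocyte markers over 0.5 FPKM in PLC cells, 3 passed upward (SERPINA1, APOA1 and AFP) and 0 downward. ALB had a ratio of 1.38 and TF one of 1.20, while APOB, KRT8, KRT18 and HNF4A had ratios between 1.02 and 1.099. In Huh7 cells 2 of 10 passed upward, TF (1.61) and APOA1 (1.52), and 0 downward. The summed level of the list in PLC cells was 1026 FPKM at 5 mM and 1822 at 25 mM. Most of that difference was AFP, with 306 and 1011 FPKM. The part of these markers in the ratios of PCK1, G6PC and SLC37A4 was not tested.

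The balance of isoenzymes followed these levels. PCK1 made up 1.48% of the summed FPKM of PCK1 and PCK2 in PLC cells at 5 mM (1.25% to 1.74%, exact interval on the reads) and 6.99% at 25 mM (6.31% to 7.71%). In Huh7 cells its share was 0%, with exact upper bounds of 0.103% at 5 mM and 0.208% at 25 mM. The mitochondrial form was therefore the main carboxykinase transcript in each library. G6PC made up 6.13% of the summed FPKM of G6PC and G6PC3 in PLC cells at 5 mM (4.54% to 8.06%) and 13.5% at 25 mM (10.9% to 16.4%). In Huh7 cells the share of G6PC was 0.637% at 5 mM (0.174% to 1.62%) and 0.959% at 25 mM (0.386% to 1.96%), and these intervals overlap.

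These shares and the order of levels rest on the gene length in the table, which merges the exons of all transcripts. That length is 2.94 times the canonical transcript of GENCODE release 44 for SLC37A4 and 2.89 times for G6PC3, but 1.05 times for G6PC. With canonical lengths, G6PC3 moved above PC in PLC cells at 5 mM (15.8 against 15.5 FPKM), and SLC37A4 moved above PCK2 in Huh7 cells at 25 mM (18.6 against 16.5 FPKM) and above PC in PLC cells at 25 mM (28.5 against 23.1 FPKM). The share of G6PC at 25 mM in PLC cells was then 5.33%. Ratios within a gene do not depend on its length, apart from the added 0.1.

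For a change with glucose common to the lines, edgeR's quasi-likelihood test was fitted with the cell line as a term and Benjamini-Hochberg adjustment over 23217 genes. The lines are not replicate cultures, and the design leaves 1 residual degree of freedom. Of the 6 members tested (FBP1 had too few reads), 0 had an adjusted p under 0.05, where 0.0646% of all genes passed as higher and 0.314% as lower at 25 mM. Unadjusted values under 0.05 were found for 3 members by edgeR, for 2 by DESeq2 and for 4 by limma. Over all genes, 1975 of 23217 had such a value by edgeR, 1098 by DESeq2 and 2219 by limma. The smallest adjusted p was that of PCK1, 0.115 in edgeR for a log2 change of 2.17 with a standard error of 0.51, and it rests on PLC cells, since Huh7 cells had 0 reads. SLC37A4 had a log2 fold change of 1.17 (standard error 0.36, edgeR adjusted p = 0.244), higher at 25 mM in 2 of 2 lines. For PCK2 it was -0.84 (standard error 0.30, edgeR adjusted p = 0.365), with the difference in Huh7 cells. Without the filter on low counts, PCK1 and SLC37A4 passed, with adjusted p = 0.00782 and 0.0115 in edgeR. Over all alternatives these adjusted values ran from 0.00782 for PCK1 and from 0.0115 for SLC37A4 up to 0.999964 for both.

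The difference between the lines was taken from the same fit, with its 1 residual degree of freedom. The 5 mM and 25 mM libraries of a line stand in it for replicates. Its p-values therefore do not measure the spread between cultures of a line. An adjusted p under 0.05 was found for 4 of the 6 members, with PCK1, PCK2 and G6PC higher in PLC cells and PC higher in Huh7 cells. Of all genes, 21.1% were called higher in PLC cells and 21.8% higher in Huh7 cells. PC had a log2 difference (PLC minus Huh7) of -2.10 (standard error 0.22, edgeR adjusted p = 6.52e-06). The log2 difference was 1.68 for PCK2 (standard error 0.30, edgeR adjusted p = 0.000596) and 3.88 for G6PC (standard error 0.65, edgeR adjusted p = 0.000337). The fit gives 1 value for both concentrations. PCK2 in PLC cells stood at 1.91 times Huh7 cells at 5 mM (1.82 to 2.01) and at 5.36 times at 25 mM (5.00 to 5.75). PCK1 had an edgeR adjusted p of 4.10e-07, and its difference is best given by the bounds above. G6PC3, with 0.11 (standard error 0.28, edgeR adjusted p = 0.785), and SLC37A4, with -0.26 (standard error 0.35, edgeR adjusted p = 0.590), did not pass. For SLC37A4 the lines stood in opposite order at the 2 concentrations, with PLC cells at 0.445 times Huh7 cells at 5 mM (0.392 to 0.504) and at 1.53 times at 25 mM (1.40 to 1.67).

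Promoter sequences, from 250 bases before to 50 after the RefSeq start site on GRCh38.p14, were matched for 6 of the 7 members, the exception being PCK1. They were searched on both strands for TGATGNAAT (bound by ATF4 with C/EBP), TGACGTCA and TTACGTCA (cyclic AMP response), GTAAACA (forkhead factors) and CACGTG (E-box). The core promoter box TATAAA was added after the sequences had been seen. Of 35116 promoters of this length, 0.991% hold TGATGNAAT, 1.85% TGACGTCA, 0.416% TTACGTCA, 3.42% GTAAACA, 7.26% CACGTG and 11.5% TATAAA. Shown are promoters of G6PC and SLC37A4, genes past the threshold upward with glucose in PLC cells, of G6PC3, the other phosphatase, and of PCK2, lower at 25 mM in Huh7 cells. For SLC37A4 the second of 2 start sites and for G6PC3 the first of 3 is shown, and the counts are per gene, so no value belongs to a single start site. Capitals mark the motifs found. The windows are chr17:42900549-42900848 on the plus strand, chr11:119029431-119029730 on the minus strand, chr17:44070423-44070722 on the plus strand and chr14:24094061-24094360 on the plus strand.
G6PC: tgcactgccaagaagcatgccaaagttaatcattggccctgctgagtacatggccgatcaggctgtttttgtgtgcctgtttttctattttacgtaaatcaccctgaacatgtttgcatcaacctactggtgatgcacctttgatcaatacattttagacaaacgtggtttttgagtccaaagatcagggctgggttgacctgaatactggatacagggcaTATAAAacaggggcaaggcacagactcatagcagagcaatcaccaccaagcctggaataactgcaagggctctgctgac
SLC37A4: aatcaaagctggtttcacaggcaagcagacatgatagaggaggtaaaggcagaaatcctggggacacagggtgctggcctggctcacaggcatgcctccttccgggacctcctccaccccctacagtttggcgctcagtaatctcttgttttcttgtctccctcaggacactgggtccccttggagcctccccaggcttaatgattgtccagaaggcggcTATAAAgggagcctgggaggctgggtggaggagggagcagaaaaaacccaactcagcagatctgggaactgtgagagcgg
G6PC3: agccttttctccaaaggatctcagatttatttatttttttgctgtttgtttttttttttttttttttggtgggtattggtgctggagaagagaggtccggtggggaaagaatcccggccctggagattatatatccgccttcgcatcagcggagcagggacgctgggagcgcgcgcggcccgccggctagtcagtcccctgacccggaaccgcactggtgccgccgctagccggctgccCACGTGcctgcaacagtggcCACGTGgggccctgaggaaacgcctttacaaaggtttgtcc
PCK2: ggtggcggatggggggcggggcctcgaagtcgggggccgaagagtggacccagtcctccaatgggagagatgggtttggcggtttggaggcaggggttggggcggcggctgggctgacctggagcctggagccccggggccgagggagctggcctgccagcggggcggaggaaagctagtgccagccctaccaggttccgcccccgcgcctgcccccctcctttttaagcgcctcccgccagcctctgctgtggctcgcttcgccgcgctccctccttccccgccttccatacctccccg

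The windows shown for G6PC and SLC37A4 each hold TATAAA, which begins 29 and 30 bases before the start site. Of the 2 windows of SLC37A4, only the one shown holds it. As this motif was added after the sequences had been seen, its presence in both genes tests nothing. The window shown for G6PC3 holds CACGTG at 2 places, 11 bases before and 9 bases after its first start site. The overlapping windows of its other start sites hold the motif 73 and 53 bases before the second and 249 and 229 bases before the third. The window of PCK2, like those of PC and FBP1 and the first start site of SLC37A4, holds none of the 6 motifs. Its bases are 71.7% G or C, against 45.7% in the window of G6PC. A match of letters is a description and shows no binding.

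The other genes of the pathway were counted by lists chosen with earlier results known, to be read beside the shares over all genes given above. Of 20 genes that bring in substrate, such as lactate dehydrogenase, transaminases and mitochondrial carriers, 1 passed upward and 3 downward of 17 over 0.5 FPKM in Huh7 cells, and 3 upward and 2 downward of 20 in PLC cells. LDHA, which interconverts lactate and pyruvate, had ratios of 1.53 and 1.48 in Huh7 and PLC cells, with 125 to 191 FPKM and 111 to 165 FPKM. GPT2, the mitochondrial alanine transaminase, had ratios of 0.361 and 0.515 and was the single gene of this list called by edgeR (log2 fold change -1.31, standard error 0.24, adjusted p = 0.0420). In PLC cells the dicarboxylate carrier SLC25A10 had a ratio of 3.12 and SDS, which makes pyruvate from serine, 2.37. In Huh7 cells these were 1.38 and 0.895, the latter on 19 and 23 reads.

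Among 11 genes of the reversible steps that glycolysis shares with gluconeogenesis, 0 passed upward and 1 downward in Huh7 cells, and 3 upward and 0 downward of 9 in PLC cells. PGAM1, which moves the phosphate of phosphoglycerate, had ratios of 1.43 and 1.53 in Huh7 and PLC cells, and TPI1 1.25 and 1.18. ENO3 had 1.15 and 1.53, and ALDOC 0.788 and 2.27. The edgeR fit called 0 of these 11 and gave 1 of them an unadjusted value under 0.05, as it did 1975 of all 23217 genes.

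The steps that run against gluconeogenesis went both ways in PLC cells. Of 14 genes for hexokinases, phosphofructokinases and pyruvate kinases with their regulators, 0 passed upward and 2 downward of 8 in Huh7 cells, and 4 upward and 5 downward of 12 in PLC cells. HKDC1, a hexokinase-like enzyme, had 8706 and 1106 reads in PLC cells, a ratio of 0.241, and was called by edgeR (log2 fold change -1.87, standard error 0.31, adjusted p = 0.0206). That call rests on PLC cells, since HKDC1 had 25 and 17 reads in Huh7 cells, a ratio of 0.620 (0.245 to 0.931) at under 0.5 FPKM. HK2 had 420 and then 16 reads in the PLC libraries (ratio 0.110) but had 4018 and 4836 in the Huh7 libraries (0.856). GCKR, the inhibitor of glucokinase, had a ratio of 0.561 in the Huh7 and 0.538 in the PLC libraries. PFKFB4, one of the enzymes that set the level of fructose 2,6-bisphosphate, had 1.31 and 3.55. Its relative PFKFB3, with far more reads in PLC cells (15512 and 2674), had ratios of 1.40 in Huh7 and 0.326 in PLC cells. For PFKFB2 they were 0.452 and 0.706.

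Of 20 transcriptional regulators of gluconeogenesis, 0 passed upward and 3 downward of 19 in Huh7 cells, and 1 upward and 8 downward of 19 in PLC cells. Over all genes, 13.7% passed downward in Huh7 cells, about the share of these regulators, and 26.2% upward and 17.0% downward in PLC cells. FOXO1, the forkhead factor that insulin holds out of the nucleus, had a ratio of 0.578 in the Huh7 and 0.539 in the PLC libraries. FOXO3 had 0.682 and 0.350. CEBPB was called by edgeR (log2 fold change -1.44, standard error 0.23, adjusted p = 0.0192), with ratios of 0.454 and 0.335. CREB3L3, a liver factor activated by cleavage, was the single regulator past the threshold upward, with a ratio of 1.38 in the Huh7 libraries (274 and 537 reads) and 4.01 in the PLC libraries (74 and 170 reads). In the PLC library at 25 mM, PCK1, G6PC and SLC37A4 were higher, as was CREB3L3, and FOXO1, FOXO3 and CEBPB were lower. Whether any of these regulators bears on the members was not tested.

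Since PCK2 is known as an ATF4 target, it was set beside 16 genes of the amino acid response. Of these, 15 passed downward in Huh7 cells and 14 in PLC cells, 0 passed upward, and edgeR called 11 as lower at 25 mM. The ratio of CHAC1 was 0.0490 for Huh7 and 0.120 for PLC cells, that of ASNS 0.161 and 0.302, DDIT4 0.139 and 0.244 and ATF3 0.252 and 0.0777. ATF4 itself had a ratio of 0.618 in Huh7 and 0.560 in PLC cells. In Huh7 cells the log2 ratio of PCK2, -1.49, was close to the median of the list, -1.50, but the list ran from -4.35 (CHAC1) to -0.04 (ATF5). In PLC cells the log2 ratio of PCK2 was -0.02 beside a median of -1.53. The list genes that did not pass downward in PLC cells, ATF5 with a ratio of 1.13 and SHMT2 with 1.04, were picked out after their values had been seen, and in Huh7 cells they had 0.974 and 0.531.

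**Figure D1:**
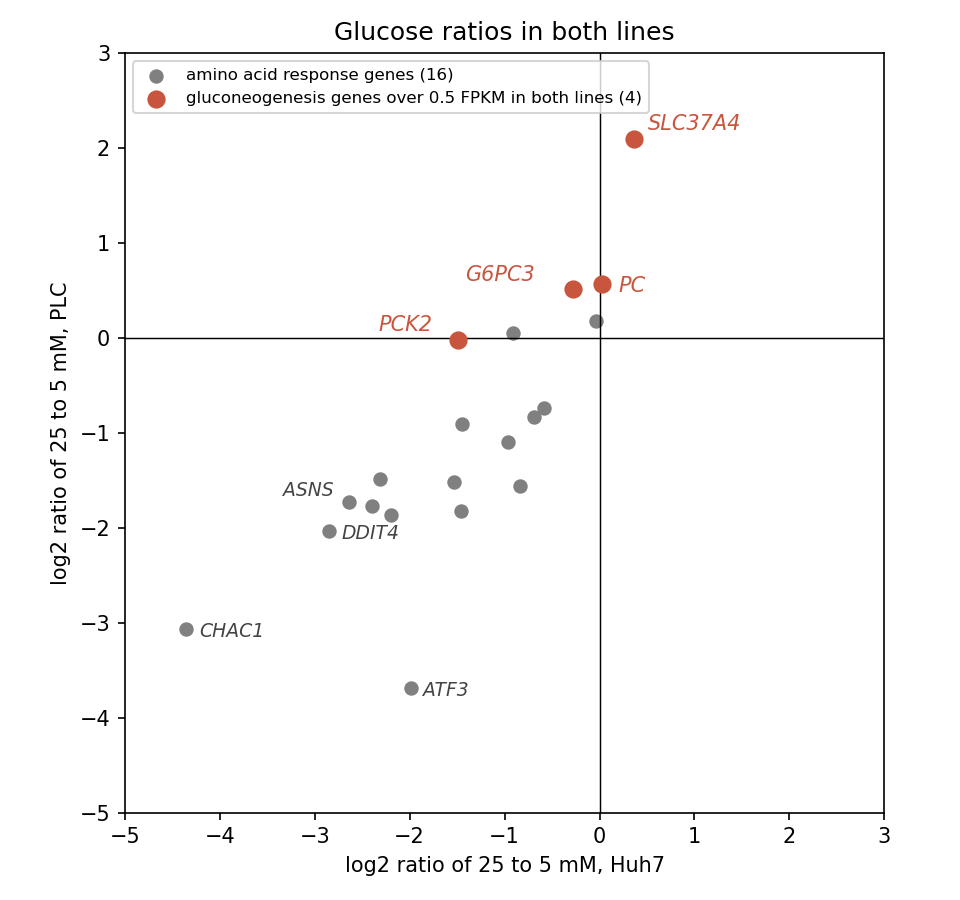
log2 ratio of 25 mM to 5 mM glucose in Huh7 cells (horizontal) and PLC cells (vertical) for 16 amino acid response genes (grey) and the 4 gluconeogenesis genes over 0.5 FPKM in both lines (red), from 1 library per condition. PCK2 lies at -1.49 and -0.02, among the grey genes along the horizontal axis and above most of them along the vertical axis.

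The protein-coding genes most like each member over the 4 libraries were taken from 9109 genes with at least 100 reads in every library, by the root mean square difference of centred log2 FPKM. With PCK2 these were MST1 (0.12), PPARGC1A (0.13) and PFKFB2 (0.21). PPARGC1A, a coactivator of gluconeogenic transcription, had 1.24 and 0.495 FPKM in the Huh7 libraries and 2.96 and 2.58 FPKM in the PLC libraries, so that it was lowest in Huh7 cells at 25 mM as PCK2 was. The genes nearest to SLC37A4 were NDRG2 (0.07), KIF2C (0.10) and PFKFB4 (0.10), and those nearest to PC were ARHGEF26 (0.03), DNMT3A (0.04) and NR6A1 (0.04). For G6PC3 they were BLOC1S5 (0.02), FBXO46 (0.03) and SMPD1 (0.05), and 755 genes lay within 0.20 of it, against 2 for PCK2. With 4 libraries such likeness is a description alone.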

How the data were processed

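RNA-seq libraries of Huh7 and PLC cells at 5 mM and 25 mM glucose were analysed, 1 library per condition. The authors deposited raw read counts per gene, with gene length and exon positions. Per the submitters' processing notes, HISAT2, featureCounts and hg38 were used, and versions, the annotation release and strand setting are not given in the sources used here. Of 59657 data lines, 5 belong to a broken entry and were left out. FPKM, ratios and exact intervals were calculated with SciPy 1.17.1. Counts were tested with edgeR 4.0.16 (glmQLFit, TMM, filterByExpr, cell line and glucose as terms), with DESeq2 1.42.0 and limma 3.58.1 as alternatives, and the code was tested on simulated data. The edgeR test returns no standard error. Those given were derived as the absolute log2 fold change divided by the square root of the F statistic of the test. The other alternatives were pseudocounts of 0 and 1, TMM and DESeq2 scaling, other FPKM filters and, chosen after the data were seen, canonical transcript lengths (GENCODE release 44) and ratios relative to the median of the line. The members and gene lists were chosen with earlier results of these data known. Up to 4 genes per list are named, by the largest absolute mean log2 ratio of the lines where the deeper-covered library of each line had 20 reads or more, and 3 genes most like each member with at least 100 reads in every library. PFKFB2 and PFKFB3 were named in addition, after their values had been seen.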

Additional observations from a re-analysis of the deposited data

Results flagged for a closer look

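G6PC3 lay on opposite sides of 1, the ratio of 25 mM to 5 mM being 0.826 for Huh7 and 1.42 for PLC cells, and neither counting interval holds 1. With 1 library per condition, no test of this difference was made, and it was not tested.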

How the results depend on the processing

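The cell line term of the edgeR fit already pairs the libraries of each line, and without that term 0 members were called, as with it. Leaving out a replicate and testing a difference between the glucose ratios of the lines could not be done with 1 library per condition. Without a filter on FPKM, 2 members passed in Huh7 cells (PCK2 and FBP1, the latter on 4 and 17 reads) in place of 1. Without the filter on low counts, edgeR called 2 members for a shared glucose change in place of 0, and 242 genes higher and 284 lower in place of 15 and 73. Over all genes, DESeq2, which adjusted 11064, called 63 higher and 131 lower, and edgeR without the cell line term 0 and 0. Without the glucose term, the log2 line difference of SLC37A4 turned to 0.0435 from -0.26, neither past the test. The cause was not tested. With FPKM over 0.5 in both libraries, 2 members passed in PLC cells, without G6PC. The other counts of members were as given under each alternative run, and the 4 members called between the lines were the same in all 5. With a pseudocount of 1, the ratios in PLC cells were 2.63 for PCK1, 1.63 for G6PC and 3.36 for SLC37A4. Scaling shifted the log2 ratios in PLC cells by -0.12 (TMM) and -0.13 (DESeq2) and in Huh7 cells by -0.04 and -0.02. Depth limits FBP1 in both lines and G6PC in Huh7 cells, where 17 reads or fewer were counted.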
